A study of Mus musculus with 10 samples.

Results

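Ductal macrophages were compared with stromal macrophages of the mouse mammary gland, using 4 of the 10 RNA-seq libraries of the study, 2 of each population. Libraries were placed in the populations by their labels alone, and the comparison was described over all genes, with weight on transcription factors, receptors, ligands and pathways at high expression. All donors were virgin adult C57BL/6 females without a stated treatment, and RNA came from freshly sorted cells of each population. The labels call the replicates biological, give no surface markers or gates for the sort, and do not say whether a library came from a single mouse or a pool. The other 6 libraries hold 3 dendritic cell populations of the same gland, namely CD11b-CD103+ (CD103+), CD11b-CD103- (CD103-) and CD11b+ cells, and here they serve the shared estimate of spread and the check of labels.

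Ductal macrophages sit within the epithelial wall of the milk ducts, while stromal macrophages lie in the surrounding connective tissue and fat. A macrophage reads its surroundings through cytokine, pattern recognition, scavenger and adhesion receptors, whose signals reach transcription factors such as NF-kB, AP-1, STAT and IRF proteins. It answers with chemokines, cytokines, growth factors, complement proteins and proteases that act on the cells and matrix nearby.

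Total counts were 5636092 and 6388106 in ductal macrophages and 23093742 and 17998986 in stromal macrophages (replicates 1 and 2), so that values of the ductal population rest on fewer reads. Levels are given as CPM, the counts scaled to the TMM-normalized total of tested genes of a library, and 3 counts correspond to 0.683 and 0.567 CPM in ductal and 0.166 and 0.173 CPM in stromal libraries. Transcripts of the mitochondrial genome took 0.631% and 0.891% of counts in ductal macrophages, against 24.8% and 23.1% in stromal macrophages. The summed level of 12 macrophage markers was 42172 and 36650.3 CPM in ductal macrophages, against 19576 and 12779.6 CPM in stromal macrophages, and all 12 were detected in all 4 libraries. In CD11b+ dendritic cells the sum of these 12 markers was 26719 and 28402 CPM, above both stromal libraries. The sum thus does not set stromal macrophages apart from that population. Most of the CD11b+ sum came from Lyz2, with 22099 and 24012 CPM, and Cd14 was also higher in CD11b+ cells than in stromal macrophages. Adgre1 and Csf1r overlapped between the populations. The remaining markers were higher in stromal macrophages, such as C1qb with 2184 and 1546 CPM, against 80.5 and 153 CPM in CD11b+ cells. Summed levels of 10 luminal epithelial markers were 231 and 444 CPM in ductal macrophages, against 1055 and 2511 CPM in stromal macrophages. Those of 8 adipocyte markers were 2.96 and 11.5 CPM in ductal macrophages, against 262 and 250.4 CPM in stromal macrophages, with the lipid droplet gene Plin1 at 0 in both ductal libraries. Those of 8 fibroblast markers were 431 and 1248 CPM in ductal macrophages, against 1232 and 1658 CPM in stromal macrophages, and overlapped. Of 8 neutrophil markers, 7 were at 0 in both ductal and 4 in both stromal libraries. The other, Csf3r, was called higher with 169 and 135 CPM in ductal, against 24.7 and 20.9 CPM in stromal macrophages. Those of 8 T cell markers were 315 and 326 CPM in ductal macrophages, against 11.4 and 7.56 CPM in stromal macrophages, nearly all of it in ductal libraries from Il7r. Those of 7 monocyte markers were 97.9 and 71.1 CPM in ductal macrophages, against 6624 and 5115 CPM in stromal macrophages, most of it in stromal libraries from F13a1. Those of 6 mast cell markers were 33.9 and 29.5 CPM in ductal macrophages, against 184 and 157 CPM in stromal macrophages. Nearly all of the ductal sum came from Kit, which is also on the dendritic cell list. Kit had 33.3 and 25.3 CPM in ductal, against 20.6 and 98.7 CPM in stromal macrophages, and overlapped. Of 10 dendritic cell markers, Clec9a and Ccr7 were at 0 in both stromal libraries. The part of these cells and of the mitochondrial share in the results below was not tested. In sorted bulk RNA, fewer cells of a type and less RNA per cell cannot be told apart.

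Of 15681 genes tested, 2555 (16.3%) were higher and 2246 (14.3%) lower in ductal macrophages at an adjusted p under 0.05 (edgeR quasi-likelihood test, Benjamini-Hochberg over all genes). Log2 differences below are ductal minus stromal, and the median over all tested genes was -0.10. The value after ± is an approximate standard error, the absolute log2 difference divided by the square root of the F statistic of its test. Where a log2 difference stands without its p, the gene passed the threshold. Among the 1852 genes with a mean of at least 100 CPM over the 4 libraries, 963 (52.0%) were called, of which 643 (34.7%) were higher and 320 (17.3%) lower. The corresponding share over all tested genes was 30.6%. The differences at high level varied widely in size. Of the 643 highly expressed genes that were higher, 107 differed by less than 1 log2 unit, 268 by 1 to 2, 204 by 2 to 4 and 64 by at least 4. Of the 320 that were lower, 43 differed by less than 1 log2 unit, 135 by 1 to 2, 86 by 2 to 4 and 56 by at least 4. In none of these 963 genes did a ductal library overlap a stromal library. Over all levels the same held for 2550 of the 2555 higher and 2244 of the 2246 lower genes. The lack of overlap thus goes with the call and is not particular to high expression. Without ductal replicate 1, 1555 genes were higher and 981 lower over all genes, and without ductal replicate 2, 1349 were lower. The plot of level against difference shows this spread.

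**Figure D1:**
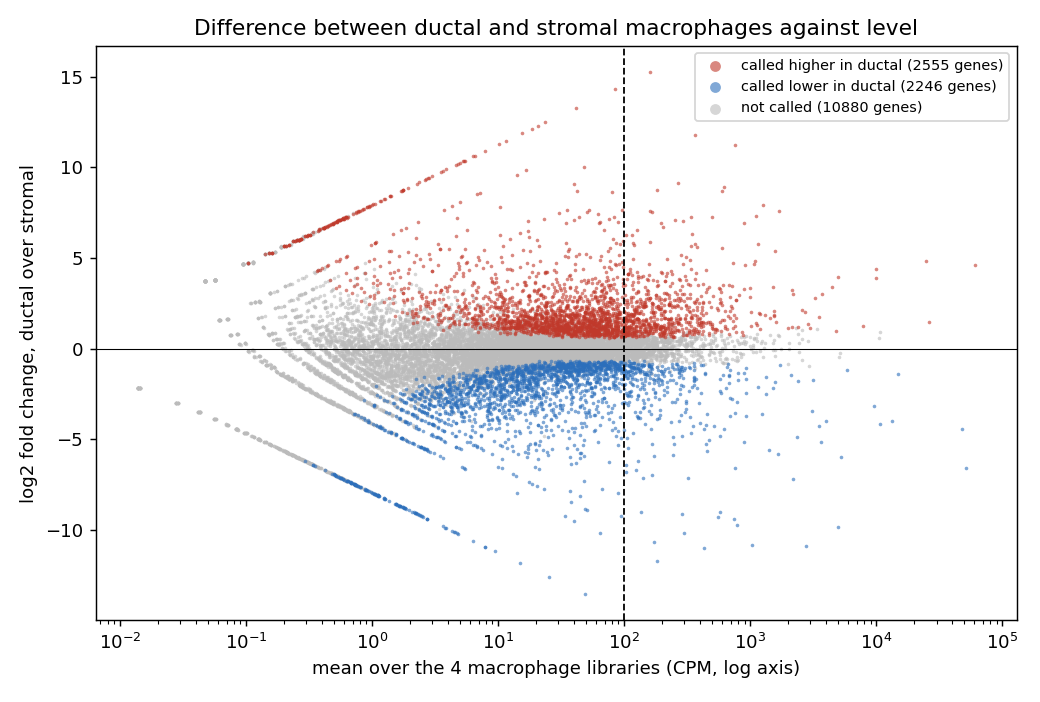
Each point is a tested gene, with its mean CPM over the 4 macrophage libraries on the x axis (log scale) and its log2 difference, ductal minus stromal, on the y axis, coloured by call. Called genes lie on both sides over the whole range of levels, and among genes at 100 CPM or more 643 lie above and 320 below.

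At the top of the level range, genes of lysosomal and mitochondrial membrane proteins were among those higher in ductal macrophages. Ctsz (Entrez gene ID 64138, chr2:174427494-174439039 of GRCm38), which encodes the lysosomal carboxypeptidase cathepsin Z, had 7436 and 5640.2 CPM in ductal, against 934 and 689.8 CPM in stromal macrophages (log2 difference 3.01 ± 0.35, adjusted p = 0.0001). Ucp2, a carrier of the inner mitochondrial membrane, had 4374 and 4383 CPM in ductal and 1134 and 1036 CPM in stromal libraries (log2 difference 2.01 ± 0.31), and Laptm5, a lysosomal membrane protein of blood cells, had 4028 and 4265 CPM in ductal and 1014 and 884 CPM in stromal libraries (log2 difference 2.13 ± 0.32). Genes lower in ductal macrophages at high level included a chemokine and genes of the immediate early response. Ccl6, which encodes a CC chemokine, had 158 and 251 CPM in ductal, against 7249 and 6931 CPM in stromal macrophages (log2 difference -5.11 ± 0.43, adjusted p = 1.7e-05). Klf6, a zinc finger transcription factor, had 787 and 607 CPM in ductal and 3123 and 1797 CPM in stromal libraries (log2 difference -1.82 ± 0.33), and Zfp36, which encodes an RNA-binding protein that speeds the decay of cytokine mRNA, had 1041 and 1131 CPM in ductal and 4074 and 3239.9 CPM in stromal libraries (log2 difference -1.75 ± 0.29). Genes at the top of the level range were chosen among those whose ductal and stromal libraries did not overlap. The lack of overlap in these 6 genes is therefore no further result.

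Genes were grouped by role into 51 lists with 1427 tested members, of which 404 (28.3%) were called higher and 261 (18.3%) lower in ductal macrophages, beside 16.3% and 14.3% of all genes tested. Each list count below is to be read beside these shares of all genes, and a list near them shows no lean of its own. The lists were not matched for level. At 100 CPM or more, 34.7% of all genes were higher and 17.3% lower. Receptors, counted with adaptors, bridging proteins and some surface ligands, leaned towards the ductal population, with 164 of 480 (34.2%) higher and 80 (16.7%) lower. Transcription factors, counted with NF-kB kinases and inhibitors, leaned the other way, with 29 of 142 (20.4%) higher and 44 (31.0%) lower. Ligands, counted with complement, coagulation and protease genes, had 50 of 235 (21.3%) higher and 55 (23.4%) lower. Within that group, metalloproteinases, ADAMs and inhibitors had 12 of 29 higher and 4 lower. Coagulation and plasminogen genes had 5 of 23 higher and 6 lower. Ligands without these 2 lists were not counted. Of signalling genes, 66 of 179 were higher and 38 lower, and of metabolic genes, 68 of 245 were higher and 41 lower. The 41 include 13 respiratory chain genes of the mitochondrial genome. With mitochondrial genes left out, 69 metabolic genes were higher and 30 lower. Without ductal replicate 1 the numbers lower were 159 over all lists, 53 receptors, 29 ligands and 25 signalling genes, the numbers higher were 43 metabolic genes, and transcription factors counted 14 higher and 26 lower. Without ductal replicate 2, 18 transcription factors were higher. Gene length moved with the difference. Genes at 10 CPM or more were divided into 8 bins by length. In the shortest, with 82 to 1241 bases, 10% were higher and 26.5% lower, while in the longest, with 5719 to 83437 bases, 32.3% were higher and 12.8% lower. With that trend removed, these shares were 17.5% and 17.5% in the shortest and 24.3% and 21.3% in the longest.

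**Figure D2:**
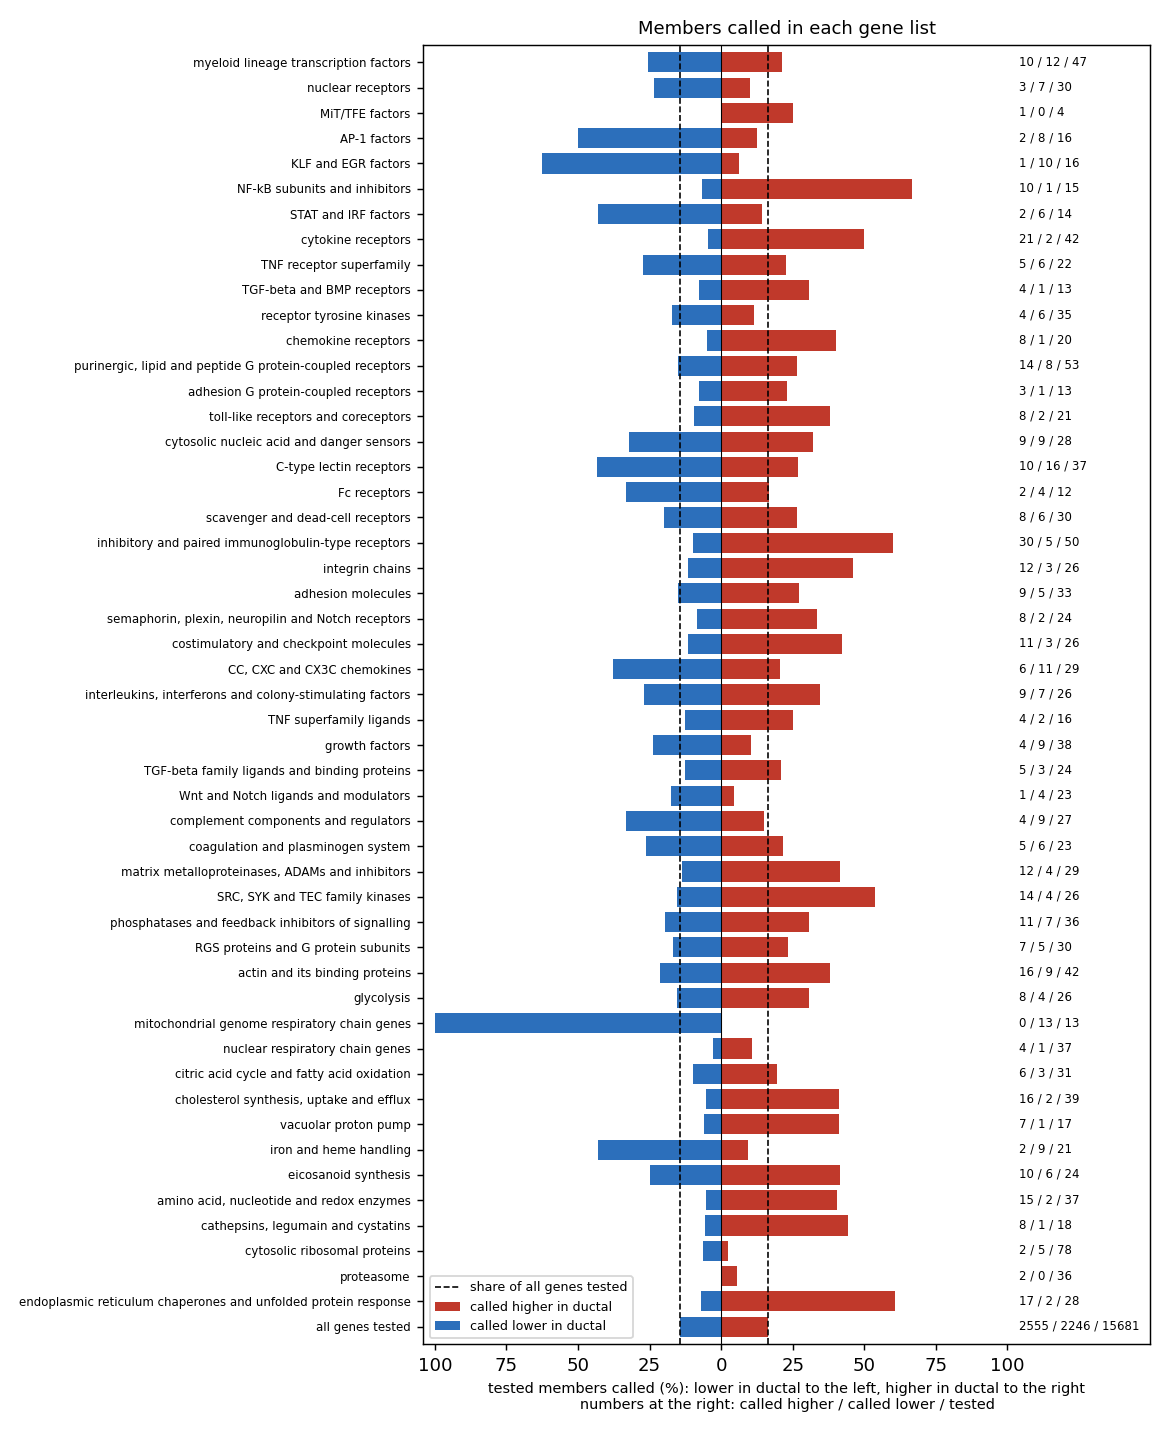
Each row is 1 of the gene lists, with bars for the percentage of its tested members called higher (right) and lower (left) in ductal macrophages, and counts at the side. Lists of cytokine receptors and of inhibitory and paired receptors reach far to the right with 21 of 42 and 30 of 50 members higher, and KLF and EGR factors reach to the left with 10 of 16 lower.

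NF-kB proteins are held in the cytoplasm by inhibitors and move into the nucleus after signals of infection and of TNF-type cytokines. Of the NF-kB subunits, kinases and inhibitors, 10 of 15 were called higher and 1 lower, with a median log2 difference of 0.74. The counts were 4 higher and 0 lower without ductal replicate 1, 5 higher and 0 lower without ductal replicate 2, 6 higher and 0 lower without stromal replicate 2 and 0 lower without stromal replicate 1. Nfkbie (Entrez gene ID 18037, chr17:45555700-45563169), which encodes the inhibitor IkB-epsilon, had 279 and 275.6 CPM in ductal, against 27.3 and 32.8 CPM in stromal macrophages (log2 difference 3.21 ± 0.27, adjusted p = 1.6e-05). Nfkb2, the precursor of the p52 subunit of the alternative pathway, had 269 and 273.5 CPM in ductal, against 58.7 and 62.3 CPM in stromal macrophages (log2 difference 2.16 ± 0.22, adjusted p = 5.0e-05). Tnfaip3, which encodes the ubiquitin-editing feedback inhibitor A20, had 1863 and 1381 CPM in ductal, against 627 and 592 CPM in stromal macrophages (log2 difference 1.41 ± 0.35, adjusted p = 0.011), with an adjusted p of 0.088 without ductal replicate 1. Nfkbia, which encodes IkB-alpha, was not called, with 2409 and 2064 CPM in ductal and 2089 and 1522 CPM in stromal libraries. Nfkbiz, a nuclear IkB protein, was the member called lower, with 427 and 452 CPM in ductal and 885 and 854 CPM in stromal libraries (log2 difference -0.98 ± 0.28), and missed the threshold without any of the 4 macrophage libraries in turn (adjusted p from 0.051 to 0.14).

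Among lineage factors of myeloid cells, 10 of 47 were called higher and 12 lower, with a median log2 difference of -0.10. Set otherwise, they were 5 higher and 7 lower without ductal replicate 1. Runx3 (Entrez gene ID 12399, chr4:135120645-135177990), a Runt-family factor of leukocytes, had 209.3 and 244.00 CPM in ductal, against 2.15 and 3.69 CPM in stromal macrophages (log2 difference 6.28 ± 0.33, adjusted p = 1.4e-06). Prdm1, which encodes the repressor Blimp-1, had 143 and 149 CPM in ductal, against 7.78 and 4.85 CPM in stromal macrophages (log2 difference 4.53 ± 0.47, adjusted p = 5.1e-05). In neither gene did any stromal library reach 10 CPM, while all ductal libraries lay above 100 CPM. Lower in ductal macrophages were Cebpd, a C/EBP factor, with 41.002 and 69.8 CPM in ductal and 291 and 303 CPM in stromal libraries (log2 difference -2.42 ± 0.42), and Zeb2, a zinc finger homeobox factor, with 119.6 and 70.9 CPM in ductal and 369 and 319 CPM in stromal libraries (log2 difference -1.85 ± 0.37). Id3, which blocks DNA binding by basic helix-loop-helix factors, had 34.6 and 48.04 CPM in ductal and 140.3 and 182 CPM in stromal libraries (log2 difference -1.96 ± 0.31), and Tcf4, such a helix-loop-helix factor, had 75.4 and 95.0 CPM in ductal and 265 and 194 CPM in stromal libraries (log2 difference -1.43 ± 0.25). Tcf4 is 1 of 6 plasmacytoid dendritic cell markers, whose sum was 704 and 793 CPM in ductal macrophages, against 1138 and 1088 CPM in stromal macrophages. Within that list Siglech was called higher with 219 and 189.9 CPM in ductal, against 103.6 and 36.9 CPM in stromal macrophages, with an adjusted p of 0.11 without ductal replicate 1, 0.059 without ductal replicate 2 and 0.065 without stromal replicate 2, and Bst2 was not called with 316 and 405 CPM in ductal and 223 and 231 CPM in stromal libraries. The macrophage factor Cebpb, with 1371 and 1545 CPM in ductal and 1786 and 1331 CPM in stromal libraries, overlapped between the populations and was not called.

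Of MiT/TFE factors, which drive lysosome genes, 1 of 4 were called higher and 0 lower, with a median log2 difference of -0.40. The call of Tfeb, with 53.8 and 45.4 CPM in ductal, against 32.3 and 26.4 CPM in stromal macrophages, was absent in 14 of the 19 other settings.

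Immediate early factors are made within minutes of a stimulus. Of KLF and EGR factors, 1 of 16 were called higher and 10 lower, with a median log2 difference of -2.03. Klf4, a factor of monocytes and macrophages, had 36.7 and 32.5 CPM in ductal, against 311 and 187 CPM in stromal macrophages (log2 difference -2.85 ± 0.32, adjusted p = 8.1e-05). Klf13 was the member called higher, with 115 and 152 CPM in ductal and 36.8 and 41.1 CPM in stromal libraries (log2 difference 1.78 ± 0.27). Of AP-1 factors, 2 of 16 were called higher and 8 lower, with a median log2 difference of -0.90. Other settings gave 1 higher in a fit of the 4 macrophage libraries, 1 higher without ductal replicate 1, 1 higher without ductal replicate 2 and 1 higher without stromal replicate 2. Fos, which encodes a subunit of AP-1, had 1508 and 1465 CPM in ductal, against 5678 and 3968 CPM in stromal macrophages (log2 difference -1.70 ± 0.34, adjusted p = 0.0035). Its partner Jund had 267 and 203.7 CPM in ductal and 1182 and 921 CPM in stromal libraries (log2 difference -2.16 ± 0.32), and the stress-induced factor Atf3 had 614 and 499 CPM in ductal and 2940.1 and 1994 CPM in stromal libraries (log2 difference -2.15 ± 0.32). Jdp2, which encodes a repressor that dimerizes with JUN proteins, ran the other way with 331 and 430.3 CPM in ductal and 66.8 and 75.2 CPM in stromal libraries (log2 difference 2.42 ± 0.26). Junb was not called, with 1872 and 2237 CPM in ductal and 3428 and 2819 CPM in stromal libraries, although its ductal libraries lay below its stromal libraries.

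STAT and IRF factors carry signals of interferons and other cytokines. Of these, 2 of 14 were called higher and 6 lower, with a median log2 difference of -0.74. The counts became 2 lower without ductal replicate 1, 3 lower without ductal replicate 2 and 1 higher in 15 of the 19 other settings. Irf7 (Entrez gene ID 54123, chr7:141263183-141266499), which drives type I interferon genes and is also on the list of plasmacytoid dendritic cell markers, had 79.04 and 67.3 CPM in ductal, against 514 and 582 CPM in stromal macrophages (log2 difference -2.90 ± 0.27, adjusted p = 2.7e-05). Stat2, part of the interferon-activated complex, had 19.4 and 17.02 CPM in ductal and 66.9 and 70.4 CPM in stromal libraries (log2 difference -1.92 ± 0.26). Irf5, which acts downstream of Toll-like receptors, was higher with 642 and 549.7 CPM in ductal, against 234 and 199 CPM in stromal macrophages (log2 difference 1.46 ± 0.26, adjusted p = 0.0016). Stat3 was not called, and its libraries overlapped, with 293 and 343 CPM in ductal and 277 and 317 CPM in stromal libraries.

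Nuclear receptors are transcription factors that bind hormones, retinoids or lipids. Of these, 3 of 30 were called higher and 7 lower, with a median log2 difference of -0.37. Recounted, these were 5 higher by DESeq2, 4 lower without ductal replicate 1 and 4 lower without ductal replicate 2. Rarg, a receptor of retinoic acid, had 1.82 and 3.22 CPM in ductal, against 20.9 and 24.3 CPM in stromal macrophages (log2 difference -3.14 ± 0.47, adjusted p = 0.00061). Esr1, the oestrogen receptor alpha, had 3.87 and 2.84 CPM in ductal and 23.9 and 14.5 CPM in stromal libraries (log2 difference -2.52 ± 0.46), and is also a marker of luminal epithelium, whose summed markers were lower in ductal libraries as given above. Rxrb, a shared partner of nuclear receptors, was higher with 72.7 and 69.2 CPM in ductal and 33.1 and 31.6 CPM in stromal libraries (log2 difference 1.13 ± 0.21). Nr1h3, which encodes the oxysterol receptor LXR-alpha, had 93.6 and 31.97 CPM in ductal and 10.5 and 8.43 CPM in stromal libraries (log2 difference 2.73 ± 0.65). Without ductal replicate 1, the difference of Nr1h3 was 1.76 with an adjusted p of 0.13.

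**Figure D3:**
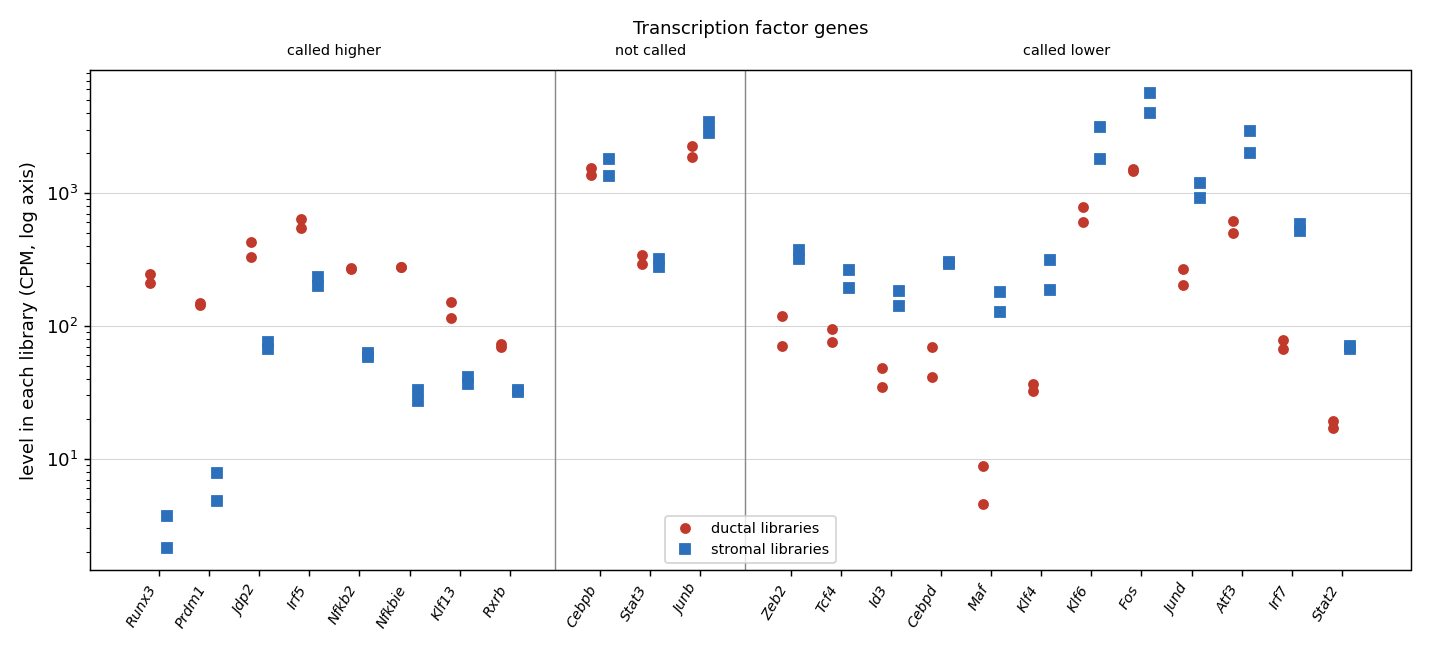
CPM (log scale) of transcription factor genes in each library, with ductal libraries in the left column of points and stromal libraries in the right column for every gene. Runx3, Prdm1 and Nfkbie lie higher in both ductal libraries, and Klf4, Irf7 and Atf3 lie lower.

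Cytokine receptors bind secreted signals of other immune and tissue cells, and leaned to the ductal population. Of these, 21 of 42 were called higher and 2 lower, with a median log2 difference of 1.64. These counts moved to 4 lower with no filter on low counts, 4 lower with the gene-length trend removed, 1 lower without ductal replicate 1 and 4 lower without stromal replicate 1. The chains of the GM-CSF receptor were both higher, with Csf2ra (Entrez gene ID 12982, chr19:61217191-61228461) at 882 and 829.8 CPM in ductal, against 83.7 and 77.1 CPM in stromal macrophages (log2 difference 3.41 ± 0.28, adjusted p = 1.3e-05). The shared beta chain Csf2rb, chosen after its values were seen as the partner of Csf2ra, had 407 and 477 CPM in ductal, against 24.9 and 46.7 CPM in stromal macrophages (log2 difference 3.63 ± 0.34, adjusted p = 2.6e-05). Csf2rb has a near-identical copy, Csf2rb2, between which reads may have been split. Ifngr1, the ligand-binding chain of the interferon-gamma receptor, had 719 and 721 CPM in ductal, against 148 and 107 CPM in stromal macrophages (log2 difference 2.50 ± 0.28, adjusted p = 8.1e-05). Of the 2 type I interferon receptor chains below, only Ifnar1 was called, although ductal libraries lay above stromal libraries for both. A difference between the chains was not tested. Ifnar1, chosen after its values were seen, had 435 and 329 CPM in ductal and 40.7 and 51.2 CPM in stromal libraries (log2 difference 3.05 ± 0.27), whereas Ifnar2 was not called with 319 and 299.8 CPM in ductal and 295 and 199 CPM in stromal libraries. Il4ra, the shared chain of the IL-4 and IL-13 receptors, had 525 and 515 CPM in ductal, against 109.6 and 120.0 CPM in stromal macrophages (log2 difference 2.18 ± 0.32, adjusted p = 0.0005). Il10rb, the shared chain of IL-10 type receptors, was not called, with 321 and 302.1 CPM in ductal and 305 and 223 CPM in stromal libraries. Ghr and Lifr, receptors of growth hormone and of leukaemia inhibitory factor, were the 2 members called lower. Ghr had 0.683 and 4.92 CPM in ductal, against 26.9 and 39.2 CPM in stromal macrophages, and adipocyte markers, of a cell type that expresses this receptor, were also lower in ductal libraries. Lifr had 57.9 and 81.5 CPM in ductal, against 211 and 135 CPM in stromal macrophages, and its adjusted p was 0.073 without ductal replicate 1.

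In the TNF receptor superfamily, 5 of 22 were called higher and 6 lower, with a median log2 difference of -0.11. Under other settings, counts were 2 lower without ductal replicate 1 and 2 lower without ductal replicate 2. Tnfrsf1b, which encodes TNF receptor 2, had 823 and 591 CPM in ductal, against 60.3 and 62.9 CPM in stromal macrophages (log2 difference 3.52 ± 0.34, adjusted p = 3.1e-05), while the other TNF receptor, Tnfrsf1a, was not called with 116 and 139.8 CPM in ductal and 174 and 164 CPM in stromal libraries. Tnfrsf11a, which encodes the osteoclast receptor RANK, had 190.4 and 153 CPM in ductal, against 68.8 and 51.4 CPM in stromal macrophages (log2 difference 1.51 ± 0.24, adjusted p = 0.0008). Tnfrsf17, which encodes the plasma cell receptor BCMA, had 1 count over both ductal libraries and 387 over both stromal libraries, and was called lower. Among TGF-beta and BMP receptors, 4 of 13 were called higher and 1 lower, with a median log2 difference of 0.36. By another setting, these came to 2 higher without ductal replicate 1. Tgfbr1, the signalling chain of the TGF-beta receptor, had 716 and 581 CPM in ductal, against 13.1 and 30.3 CPM in stromal macrophages (log2 difference 4.90 ± 0.41, adjusted p = 1.6e-05), and a log2 difference of 5.63 without stromal replicate 2. Acvrl1, a receptor of BMP-type ligands, had 138 and 128 CPM in ductal and 28.3 and 27.4 CPM in stromal libraries (log2 difference 2.25 ± 0.30). Bmpr1a, another BMP receptor, was lower with 4.33 and 6.24 CPM in ductal and 20.7 and 32.7 CPM in stromal libraries (log2 difference -2.33 ± 0.44).

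Receptor tyrosine kinases bind growth factors and Eph ligands. Of these, 4 of 35 were called higher and 6 lower, with a median log2 difference of -1.001 (-0.93 with genes at 0 put at their bound). The counts were 8 higher without stromal replicate 2. Epha2, a receptor of cell-bound ephrins, had 123 and 90.2 CPM in ductal, against 14.8 and 19.3 CPM in stromal macrophages (log2 difference 2.64 ± 0.40, adjusted p = 0.00069). Ddr2, a collagen receptor, had 2.96 and 4.16 CPM in ductal, against 27.7 and 45.2 CPM in stromal macrophages (log2 difference -3.34 ± 0.50, adjusted p = 0.00057), Met, the receptor of hepatocyte growth factor, had 2.96 and 4.73 CPM in ductal and 18.8 and 35.4 CPM in stromal libraries (log2 difference -2.80 ± 0.38), and Ryk, a Wnt coreceptor, had 5.01 and 5.86 CPM in ductal and 36.9 and 29.1 CPM in stromal libraries (log2 difference -2.60 ± 0.42). These 3 genes stayed under 10 CPM in every ductal library. Among chemokine receptors, 8 of 20 were called higher and 1 lower, with a median log2 difference of 1.60. Set otherwise, they were 5 higher without ductal replicate 2 and 0 lower without ductal replicate 1. Ccrl2, which binds chemerin without signalling, had 723 and 894 CPM in ductal, against 134 and 142 CPM in stromal macrophages (log2 difference 2.55 ± 0.31, adjusted p = 0.00015), and Cxcr4, the receptor of CXCL12, had 95.9 and 125.4 CPM in ductal and 47.8 and 29.5 CPM in stromal libraries (log2 difference 1.52 ± 0.31). Ccr2, the receptor that brings monocytes into tissue, was not called, with 94.1 and 59.2 CPM in ductal and 145 and 76.0 CPM in stromal libraries, and its libraries overlapped. Its level was below the 186 to 1407 CPM of the dendritic cell libraries in both populations.

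Of G protein-coupled receptors of lipids, nucleotides and peptides, 14 of 53 were called higher and 8 lower, with a median log2 difference of 0.26. Other settings gave 4 to 5 lower in 6 of the 19 other settings. Gpr132, a receptor linked to acids and oxidized lipids, had 121 and 145 CPM in ductal, against 4.80 and 7.04 CPM in stromal macrophages (log2 difference 4.49 ± 0.30, adjusted p = 4.8e-06). Gpr183, the oxysterol receptor that guides leukocytes in lymphoid tissue, had 251 and 234 CPM in ductal and 16.01 and 15.9 CPM in stromal libraries (log2 difference 3.93 ± 0.28), and Ptger4, a prostaglandin E2 receptor, had 286 and 256 CPM in ductal and 75.1 and 56.7 CPM in stromal libraries (log2 difference 2.04 ± 0.26). Mrgpre, an orphan receptor, had 13.9 and 7.57 CPM in ductal and 0 and 0 CPM in stromal libraries and was at least 123-fold higher in ductal macrophages, counted against a floor of 3 counts over both stromal libraries. Lpar1, a receptor of lysophosphatidic acid, was lower with 3.87 and 5.11 CPM in ductal and 43.2 and 52.2 CPM in stromal libraries (log2 difference -3.40 ± 0.30). The complement receptors C3ar1 and C5ar1 were the highest members not called, with 442 and 475 CPM in ductal and 639 and 350.2 CPM in stromal libraries for C3ar1 and 621 and 774 CPM in ductal and 557 and 427 CPM in stromal libraries for C5ar1. Of adhesion G protein-coupled receptors, 3 of 13 were called higher and 1 lower, with a median log2 difference of 0.52. Adgre1, which encodes the macrophage marker F4/80, had 1045 and 828 CPM in ductal, against 386 and 231 CPM in stromal macrophages (log2 difference 1.60 ± 0.40, adjusted p = 0.012), with an adjusted p of 0.08 without ductal replicate 1 and 0.065 without stromal replicate 2. Adgrg5, a receptor of blood cells, had 191 and 145 CPM in ductal and 0 and 0 CPM in stromal libraries and was at least 1956-fold higher.

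Toll-like receptors bind microbial lipids, proteins and nucleic acids. Of these and their coreceptors, 8 of 21 were called higher and 2 lower, with a median log2 difference of 1.34. The counts became 1 lower without ductal replicate 1, 0 lower without stromal replicate 1 and 0 lower without ductal replicate 2. Tlr2 (Entrez gene ID 24088, chr3:83836272-83841824), the receptor of bacterial lipopeptides, had 1185 and 1045 CPM in ductal, against 115 and 77.4 CPM in stromal macrophages (log2 difference 3.53 ± 0.38, adjusted p = 6.2e-05). Unc93b1, which carries the nucleic acid receptors to endosomes, had 1879.9 and 1854 CPM in ductal, against 555 and 404 CPM in stromal macrophages (log2 difference 1.96 ± 0.33, adjusted p = 0.0013). The lipopolysaccharide receptor Tlr4 was on the other side, with 69.2 and 47.9 CPM in ductal and 127 and 101 CPM in stromal libraries (log2 difference -0.96 ± 0.29), and its adjusted p was 0.18 without ductal replicate 2 and 0.11 without stromal replicate 1. The shared adaptor Myd88 was not called, with 107 and 99.3 CPM in ductal and 144 and 137 CPM in stromal libraries.

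Sensors of the cytosol were divided by type. Of these, 9 of 28 were called higher and 9 lower, with a median log2 difference of 0.33. Recounted, these were 5 higher without ductal replicate 1. Nlrp3, the core of the inflammasome that answers many danger signals, had 284 and 254 CPM in ductal, against 59.4 and 75.3 CPM in stromal macrophages (log2 difference 1.998 ± 0.30, adjusted p = 0.00065). Nlrc5, which drives MHC class I genes, had 55.6 and 38.96 CPM in ductal and 17.1 and 11.7 CPM in stromal libraries (log2 difference 1.72 ± 0.27). Zbp1, a sensor of nucleic acids in the Z form, had 33.5 and 30.5 CPM in ductal, against 201 and 239 CPM in stromal macrophages (log2 difference -2.78 ± 0.27, adjusted p = 3.2e-05), and the RNA sensors Ddx58 and Ifih1, which encode RIG-I and MDA5 and were chosen after their values were seen, had 19.1 and 11.7 CPM in ductal and 66.1 and 70.02 CPM in stromal libraries (log2 difference -2.15 ± 0.36) and 36.2 and 31.4 CPM in ductal and 126 and 99.2 CPM in stromal libraries (log2 difference -1.74 ± 0.31). Ifi203, a PYHIN protein of the interferon response, had 15.5 and 20.8 CPM in ductal and 308 and 159 CPM in stromal libraries (log2 difference -3.68 ± 0.42), and the difference was -3.09 without stromal replicate 1. Ifi205, of the same family and chosen after its values were seen, had 3.19 and 13.4 CPM in ductal, against 121 and 69.5 CPM in stromal macrophages and was called lower. PYHIN genes are near-copies of each other, so their single values are uncertain. The ductal libraries lay below the stromal libraries for all 5 of these lower sensors, as in nearly all genes called lower.

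The promoters of 22 of these 28 sensors were matched in the RefSeq table (GRCm38.p6, 250 bases before to 50 after each start). They were searched on both strands for the interferon-stimulated response element core GAAANNGAAA, because the sensors lower in ductal macrophages include genes of the interferon response. It was found in 4 of the 22, namely Ddx58, Ifi203, Ifi205 and Ifih1. The share was 3.94% over the 11766 tested genes with a matched promoter and 3.44% over all 32851 promoters. All 4 were called lower, beside 9 of the 28 sensors and 14.3% of all genes tested. The element was chosen with these calls known, and the PYHIN genes are near-copies, so the matches are no separate support for the difference. The stretches around the match upstream of the start in both PYHIN genes (Ifi203 at chr1:173942498-173942547, minus strand, Ifi205 at chr1:174031860-174031909, minus strand) are shown on the strand of the gene with the match in capitals. A match is a description of the letters and not a site in use.
Ifi203: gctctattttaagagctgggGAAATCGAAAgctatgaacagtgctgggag
Ifi205: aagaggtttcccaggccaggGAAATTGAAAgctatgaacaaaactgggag

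C-type lectin receptors bind sugars of microbes and of the body's own glycoproteins. Of these, 10 of 37 were called higher and 16 lower, with a median log2 difference of -0.48. Mrc1 (Entrez gene ID 17533, chr2:14229414-14332023), the mannose receptor, had 43.96 and 59.96 CPM in ductal, against 1190.4 and 777 CPM in stromal macrophages (log2 difference -4.24 ± 0.36, adjusted p = 1.6e-05), and Mgl2, a galactose-type lectin, had 111 and 145 CPM in ductal and 762 and 611 CPM in stromal libraries (log2 difference -2.43 ± 0.28). Cd209e had 0 and 0 CPM in ductal and 16.8 and 14.8 CPM in stromal libraries and was at least 51.1-fold lower, and Cd209c had 0 and 0 CPM in ductal and 4.36 and 5.60 CPM in stromal libraries and was at least 16.02-fold lower. Both genes belong to the DC-SIGN family of near-identical copies, between which the counting may have split reads. On the other side, Clec7a, which encodes the beta-glucan receptor dectin-1, had 2031 and 1559 CPM in ductal, against 267 and 89.8 CPM in stromal macrophages (log2 difference 3.33 ± 0.51, adjusted p = 0.00066), and a log2 difference of 4.35 without stromal replicate 1. Cd207, which encodes langerin, had 502 and 559 CPM in ductal, against 1.49 and 0.346 CPM in stromal macrophages and was called higher. Clec9a, a receptor of actin from dead cells that also marks a dendritic cell class, had 8.43 and 10.8 CPM in ductal and 0 and 0 CPM in stromal libraries and was at least 115-fold higher. Summed dendritic cell markers were 1134 and 774 CPM in ductal macrophages, against 439.5 and 378 CPM in stromal macrophages. Sirpa was the largest part of the sum in both ductal libraries. Cd209a, called lower with 0 and 0.567 CPM in ductal, against 241 and 131.97 CPM in stromal macrophages, was the largest in both stromal libraries.

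Among Fc receptors, 2 of 12 were called higher and 4 lower, with a median log2 difference of -0.06 (0.00 with genes at 0 put at their bound). Fcgr4, an activating receptor of IgG, had 115 and 195 CPM in ductal, against 13.9 and 18.5 CPM in stromal macrophages (log2 difference 3.26 ± 0.43, adjusted p = 0.00026). Fcgrt, which encodes the neonatal Fc receptor that recycles IgG and albumin, had 151.02 and 208 CPM in ductal, against 1550.0 and 1242 CPM in stromal macrophages (log2 difference -2.96 ± 0.32, adjusted p = 6.5e-05), and Trim21, a cytosolic Fc receptor, had 9.57 and 5.67 CPM in ductal and 34.8 and 41.1 CPM in stromal libraries (log2 difference -2.32 ± 0.34). The activating receptor Fcgr3 was not called, with 472 and 674 CPM in ductal and 724 and 529 CPM in stromal libraries. Among inhibitory and paired receptors of the immunoglobulin type, 30 of 50 were called higher and 5 lower, with a median log2 difference of 2.005. These counts moved to 3 lower without ductal replicate 1 and 3 lower without stromal replicate 1. Tyrobp (Entrez gene ID 22177, chr7:30413782-30417582), the adaptor DAP12 of activating receptors, had 2267 and 2541 CPM in ductal, against 805 and 566 CPM in stromal macrophages (log2 difference 1.81 ± 0.31, adjusted p = 0.0013). Lair1, an inhibitory collagen receptor, had 875 and 816 CPM in ductal, against 52.5 and 30.4 CPM in stromal macrophages (log2 difference 4.35 ± 0.45, adjusted p = 5.4e-05), Lilrb4a, another inhibitory receptor, had 1148 and 978 CPM in ductal and 407 and 248 CPM in stromal libraries (log2 difference 1.70 ± 0.34), and Sirpa, the receptor of CD47, had 804 and 528 CPM in ductal and 127 and 109 CPM in stromal libraries (log2 difference 2.50 ± 0.39). Cd200r1, which binds the inhibitory ligand CD200, went the other way with 1.14 and 1.13 CPM in ductal and 67.7 and 37.6 CPM in stromal libraries (log2 difference -5.52 ± 0.49). Treml4, a receptor that binds dead cells, had 19.4 and 20.995 CPM in ductal and 0 and 0 CPM in stromal libraries and was at least 239-fold higher.

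Of scavenger and dead-cell receptors and their bridging proteins, 8 of 30 were called higher and 6 lower, with a median log2 difference of 0.53. Havcr2 (Entrez gene ID 171285, chr11:46454931-46481255), which encodes the phosphatidylserine receptor TIM-3, had 1199 and 1269 CPM in ductal, against 2.93 and 2.25 CPM in stromal macrophages (log2 difference 8.89 ± 0.45, adjusted p = 1.4e-06). The stromal libraries held no more than 3 CPM of this gene. Bridging proteins that tie dead cells to receptor kinases of the TAM family were lower in ductal macrophages. Pros1, which encodes protein S, had 77.0 and 109.5 CPM in ductal, against 266 and 202.7 CPM in stromal macrophages (log2 difference -1.33 ± 0.25, adjusted p = 0.0023). Gas6, another TAM ligand, had 12.1 and 43.9 CPM in ductal, against 959 and 865 CPM in stromal macrophages and was called lower. Of the TAM receptors, Axl was higher with 2341 and 1869 CPM in ductal, against 84.2 and 64.1 CPM in stromal macrophages (log2 difference 4.83 ± 0.40, adjusted p = 1.5e-05), while Mertk was not called, with 63.8 and 41.2 CPM in ductal and 51.2 and 25.4 CPM in stromal libraries, and its libraries overlapped. On a per-length scale the mean of Gas6 was 10.8 FPKM in ductal and 352 FPKM in stromal macrophages, beside 414 FPKM in ductal and 14.6 FPKM in stromal macrophages for Axl and 14.8 FPKM in ductal and 10.8 FPKM in stromal macrophages for Mertk.

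Integrins couple cells to matrix and to each other. Of the integrin chains, 12 of 26 were called higher and 3 lower, with a median log2 difference of 1.30. Under other settings, counts were 1 lower without ductal replicate 1. Itgb2, the beta chain of leukocyte integrins, had 538 and 406 CPM in ductal, against 63.5 and 86.8 CPM in stromal macrophages (log2 difference 2.65 ± 0.34, adjusted p = 0.00023). Among other adhesion molecules, 9 of 33 were called higher and 5 lower, with a median log2 difference of 0.40. By another setting, these came to 1 lower without ductal replicate 1, 3 lower without CD103+ replicate 1, 1 lower without stromal replicate 2, 3 lower without CD103+ replicate 2 and 3 lower without CD11b+ replicate 2. Cd63, a tetraspanin of late endosomes and lysosomes, had 1143 and 1233 CPM in ductal, against 245 and 247 CPM in stromal macrophages (log2 difference 2.27 ± 0.28, adjusted p = 0.00015). Nectin1, an adherens junction protein, had 0 and 0 CPM in ductal and 1.55 and 1.04 CPM in stromal libraries and was at least 4.19-fold lower. Of semaphorins, plexins, neuropilins and Notch receptors, 8 of 24 were called higher and 2 lower, with a median log2 difference of 0.92. The counts were 0 lower without ductal replicate 2. Plxnd1 had 373 and 193 CPM in ductal, against 15.3 and 24.2 CPM in stromal macrophages (log2 difference 3.84 ± 0.43, adjusted p = 8.6e-05), Plxnc1 had 174 and 98.2 CPM in ductal and 10.5 and 12.99 CPM in stromal libraries (log2 difference 3.54 ± 0.39) and Plxnb2 had 304 and 198 CPM in ductal and 40.1 and 57.1 CPM in stromal libraries (log2 difference 2.37 ± 0.34), all 3 of them plexins, which receive semaphorins. Of costimulatory and checkpoint molecules, 11 of 26 were called higher and 3 lower, with a median log2 difference of 1.34. Set otherwise, they were 1 lower without ductal replicate 1. Cd86, a ligand of CD28 on T cells, had 1125 and 1307 CPM in ductal, against 203.5 and 128 CPM in stromal macrophages (log2 difference 2.87 ± 0.36, adjusted p = 0.00017), while Cd40 was not called with 90.9 and 95.3 CPM in ductal and 96.2 and 42.03 CPM in stromal libraries. Cd24a, a mucin-like surface protein that is abundant on epithelium, had 13.4 and 21.6 CPM in ductal and 64.0 and 108 CPM in stromal libraries (log2 difference -2.29 ± 0.37).

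**Figure D4:**
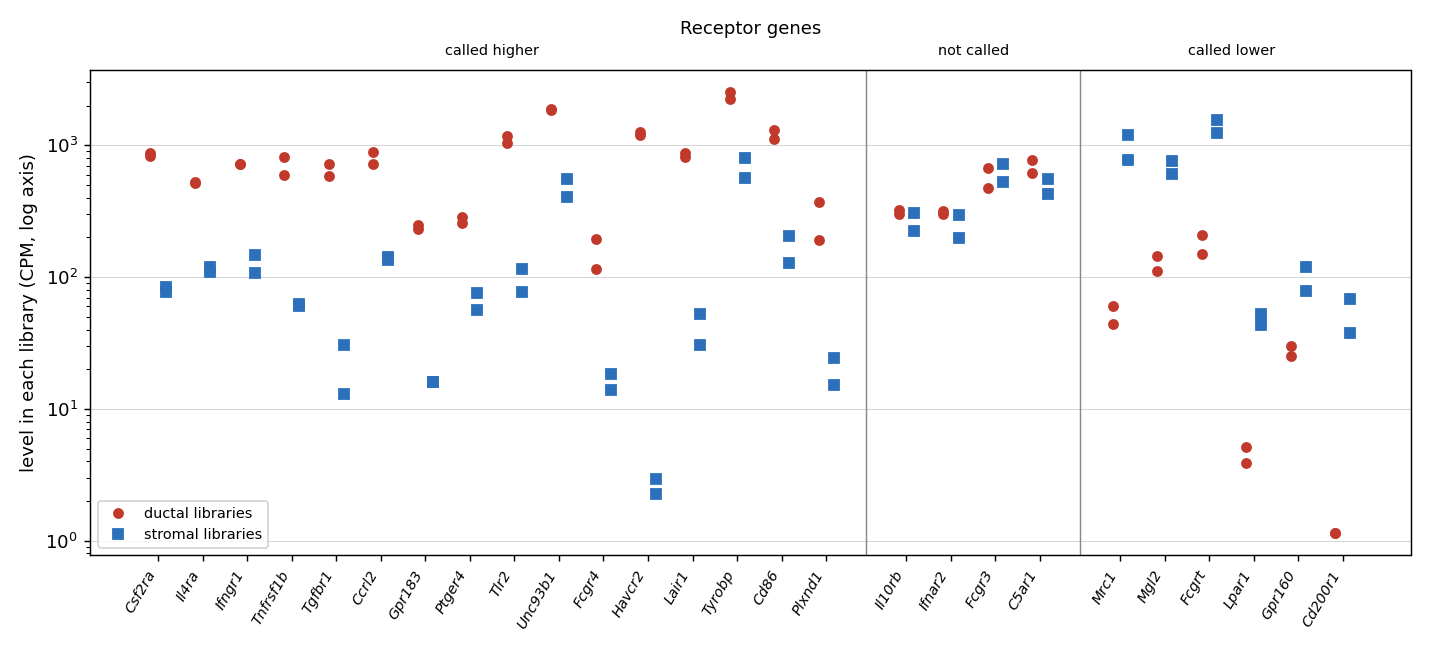
CPM (log scale) of receptor genes in each library, with ductal libraries in the left column of points and stromal libraries in the right column for every gene. Csf2ra, Ifngr1, Tlr2 and Havcr2 lie higher in both ductal libraries, and Mrc1, Fcgrt and Lpar1 lower.

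Of interleukins, interferons and colony-stimulating factors, 9 of 26 were called higher and 7 lower, with a median log2 difference of -0.14. Other settings gave 3 lower without ductal replicate 1 and 4 lower without ductal replicate 2. Il10 (Entrez gene ID 16153, chr1:131019845-131024970), an inhibitory cytokine of macrophages, had 322 and 299.99 CPM in ductal, against 88.6 and 67.1 CPM in stromal macrophages (log2 difference 1.997 ± 0.39, adjusted p = 0.0029), and Il1rn, the antagonist of the IL-1 receptor, had 427 and 462 CPM in ductal, against 78.5 and 59.2 CPM in stromal macrophages (log2 difference 2.69 ± 0.48, adjusted p = 0.0018). Tslp, an alarm cytokine that acts on dendritic and other immune cells, had 2 counts over both ductal libraries and 2672 over both stromal libraries, and was called lower. Il6 was not called, with 37.4 and 69.4 CPM in ductal and 28.8 and 63.4 CPM in stromal libraries, and its libraries overlapped. Of TNF superfamily ligands, 4 of 16 were called higher and 2 lower, with a median log2 difference of 0.29. The counts became 2 higher without ductal replicate 1, 7 higher without stromal replicate 1 and 0 to 1 lower in 10 of the 19 other settings. Tnfsf13b, which encodes the B cell factor BAFF, had 85.0 and 85.1 CPM in ductal, against 8.33 and 4.50 CPM in stromal macrophages (log2 difference 3.73 ± 0.37, adjusted p = 3.6e-05). Tnfsf8, which encodes the CD30 ligand, had 7.29 and 7.38 CPM in ductal and 0 and 0 CPM in stromal libraries and was at least 86.7-fold higher.

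Chemokines leaned to the stromal population, with 11 of 29 lower, 6 higher and a median log2 difference of -0.40. Ccl9, which attracts myeloid cells through CCR1, had 102 and 136 CPM in ductal, against 1503 and 1286 CPM in stromal macrophages (log2 difference -3.55 ± 0.32, adjusted p = 2.3e-05). Cxcl16 (Entrez gene ID 66102, chr11:70454389-70459984), a membrane-bound chemokine that also binds oxidized lipoprotein, had 2245 and 1875 CPM in ductal, against 103.4 and 56.6 CPM in stromal macrophages (log2 difference 4.69 ± 0.37, adjusted p = 1.2e-05). Cxcl1, a neutrophil attractant, was called higher with 774 and 992 CPM in ductal and 337 and 400.2 CPM in stromal libraries (log2 difference 1.26 ± 0.34), with an adjusted p of 0.1 without ductal replicate 2 and 0.078 without stromal replicate 1.

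Growth factors of macrophages act on epithelium, vessels and fibroblasts. Of these, 4 of 38 were called higher and 9 lower, with a median log2 difference of -0.96. Recounted, these were 4 lower without ductal replicate 1. Pdgfb and Pdgfa, the chains of platelet-derived growth factor, had 26.9 and 20.2 CPM in ductal, against 1.38 and 0.808 CPM in stromal macrophages (log2 difference 4.41 ± 0.41, adjusted p = 2.6e-05) for Pdgfb and 115 and 70.4 CPM in ductal and 7.23 and 7.56 CPM in stromal libraries (log2 difference 3.64 ± 0.31) for Pdgfa. Hgf (Entrez gene ID 15234, chr5:16553495-16619439), which encodes hepatocyte growth factor, had 55.8 and 50.5 CPM in ductal, against 2.097 and 3.18 CPM in stromal macrophages (log2 difference 4.33 ± 0.49, adjusted p = 9.5e-05). Hbegf, a ligand of the EGF receptor, was lower with 30.98 and 35.2 CPM in ductal and 159 and 101 CPM in stromal libraries (log2 difference -1.97 ± 0.40). Grn and Metrnl, which encode progranulin and a meteorin-like factor, were not called, with 1252 and 999 CPM in ductal and 1158 and 794 CPM in stromal libraries for Grn and 192 and 182 CPM in ductal and 220.5 and 136 CPM in stromal libraries for Metrnl. Fgf7, Fgf10, Ogn and Angpt1, which connective tissue cells also make and which were chosen after their values were seen, were called lower, but all 4 missed the threshold without ductal replicate 1. Their adjusted p was then 0.15 for Fgf7, 0.11 for Fgf10, 0.11 for Ogn and 0.19 for Angpt1. Without stromal replicate 2 it was 0.07 for Fgf10 and 0.26 for Angpt1, and without ductal replicate 2 it was 0.11 for Fgf7 and 0.15 for Angpt1. Angpt1, at 0.456 and 0.567 CPM in ductal, against 1.55 and 6.12 CPM in stromal macrophages and an adjusted p of 0.042 with all libraries, also missed the threshold in fits without 5 of the 6 dendritic cell libraries, and Fgf7 without stromal replicate 1 (adjusted p = 0.056). Summed fibroblast markers were 431 and 1248 CPM in ductal macrophages, against 1232 and 1658 CPM in stromal macrophages, and their part in these 4 genes was not tested. Of Wnt and Notch ligands and modulators, 1 of 23 were called higher and 4 lower, with a median log2 difference of -1.13. Their counts were 2 higher without stromal replicate 1, 4 higher and 2 lower without stromal replicate 2, 7 lower with no filter on low counts, 0 lower without ductal replicate 1 and 7 lower by DESeq2. The Notch ligand Jag2 had 25.1 and 44.3 CPM in ductal, against 1.55 and 6.12 CPM in stromal macrophages (log2 difference 3.18 ± 0.57, adjusted p = 0.0018), and a log2 difference of 2.54 without stromal replicate 1 and 4.48 without stromal replicate 2.

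Of TGF-beta family ligands and their binding proteins, 5 of 24 were called higher and 3 lower, with a median log2 difference of -0.41. These counts moved to 5 lower with no filter on low counts, 1 lower with a replicate block, 0 lower without ductal replicate 1, 1 lower without CD11b+ replicate 2 and 5 lower by DESeq2. Tgfb1 had 292 and 349.7 CPM in ductal, against 108 and 91.6 CPM in stromal macrophages (log2 difference 1.68 ± 0.24, adjusted p = 0.00047), and Tgfbi, a matrix protein induced by TGF-beta, had 2608 and 1734 CPM in ductal and 714 and 625 CPM in stromal libraries (log2 difference 1.70 ± 0.32). Complement proteins tag microbes and debris. Of their genes, 4 of 27 were called higher and 9 lower, with a median log2 difference of -1.29. Under other settings, counts were 1 higher without ductal replicate 1, 2 higher without stromal replicate 1, 1 higher without ductal replicate 2 and 0 higher without stromal replicate 2. C4b, a component of the classical pathway, had 6.38 and 11.3 CPM in ductal, against 237 and 215 CPM in stromal macrophages (log2 difference -4.66 ± 0.49, adjusted p = 5.4e-05). Cfd, which encodes factor D and is itself an adipocyte marker, had 1.14 and 7.19 CPM in ductal, against 188 and 157 CPM in stromal macrophages. Of the C1q chains, C1qa and C1qb were called higher, with C1qb at 4152 and 4087 CPM in ductal and 2184 and 1546 CPM in stromal libraries (log2 difference 1.14 ± 0.34). The call of C1qb was lost without ductal replicate 1, ductal replicate 2 or stromal replicate 2. C1qa had 4254 and 3952 CPM in ductal and 1874 and 1329 CPM in stromal libraries, and lost its call in 6 of the 19 other settings. C1qc was not called, with 4753 and 4525 CPM in ductal and 2448 and 1834 CPM in stromal libraries.

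The median log2 difference of genes of the coagulation and plasminogen system was -0.13. Of these, 5 of 23 (21.7%) were called higher and 6 (26.1%) lower, beside 16.3% and 14.3% of all genes. Plaur (Entrez gene ID 18793, chr7:24460937-24475970), the receptor of urokinase, had 1772 and 1693 CPM in ductal, against 72.6 and 67.6 CPM in stromal macrophages (log2 difference 4.63 ± 0.27, adjusted p = 3.0e-06). F13a1, the A chain of the fibrin-linking factor XIII, had 2.51 and 3.22 CPM in ductal, against 6258 and 4756 CPM in stromal macrophages (log2 difference -10.90 ± 0.82, adjusted p = 8.4e-06), and it is also a monocyte marker. S100a10 and Anxa2, whose proteins together bind plasminogen at the cell surface, were lower with 14.6 and 24.6 CPM in ductal and 604 and 505 CPM in stromal libraries (log2 difference -4.82 ± 0.34) for S100a10 and 69.2 and 105 CPM in ductal and 648 and 752 CPM in stromal libraries (log2 difference -3.002 ± 0.35) for Anxa2. The receptor and the S100A10 complex thus stood on opposite sides of the comparison. Of matrix metalloproteinases, ADAMs and inhibitors, 12 of 29 were called higher and 4 lower, with a median log2 difference of 0.56. By another setting, these came to 2 lower in 7 of the 19 other settings. Adam17, which sheds TNF and ligands of the EGF receptor from the surface, had 748 and 437 CPM in ductal, against 55.3 and 43.2 CPM in stromal macrophages (log2 difference 3.59 ± 0.35, adjusted p = 3.3e-05). Mmp14, a collagenase of the cell membrane, had 425 and 333 CPM in ductal and 17.8 and 23.4 CPM in stromal libraries (log2 difference 4.20 ± 0.40).

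Some ligands could be set beside their receptors in the same libraries, as a description of RNA levels. Bulk libraries do not show whether the same cells make both. Hgf was higher and its receptor Met lower in ductal macrophages, on the values given above. Summed luminal epithelial markers were also lower in ductal libraries, with 231 and 444 CPM, against 1055 and 2511 CPM in stromal libraries. Their part in the level of Met was not tested. Tgfb1 and its receptor chains Tgfbr1 and Tgfbr2 were all called higher. Tgfbr2 had 423 and 362 CPM in ductal, against 223 and 146 CPM in stromal macrophages, and its adjusted p was 0.084 without ductal replicate 1 and 0.081 without stromal replicate 2. The ligands of the CSF1 receptor, Csf1 and Il34, which were chosen after their values were seen, stayed under 10 CPM in all 4 libraries. Csf1 had 5.01 and 9.84 CPM in ductal and 6.24 and 9.01 CPM in stromal libraries and Il34 had 1.37 and 1.32 CPM in ductal and 3.53 and 4.50 CPM in stromal libraries. Neither was called (adjusted p = 0.98 for Csf1 and 0.18 for Il34).

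Kinases of the SRC, SYK and TEC families carry signals of integrins, Fc and paired receptors. Of these, 14 of 26 were called higher and 4 lower, with a median log2 difference of 1.10. The counts were 7 lower with the gene-length trend removed and 2 lower without ductal replicate 1. Ptk2b (Entrez gene ID 19229, chr14:66153257-66281100), a kinase of integrin and calcium signals, had 289.5 and 307 CPM in ductal, against 20.1 and 15.1 CPM in stromal macrophages (log2 difference 4.08 ± 0.25, adjusted p = 3.1e-06). Its relative Ptk2, focal adhesion kinase, was called lower, with 3.87 and 7.76 CPM in ductal, against 34.8 and 41.1 CPM in stromal macrophages. Lyn had 656 and 716 CPM in ductal and 147 and 130.4 CPM in stromal libraries (log2 difference 2.30 ± 0.26) and Syk had 433 and 362 CPM in ductal and 178 and 149 CPM in stromal libraries (log2 difference 1.28 ± 0.23), both acting at the first step below immune receptors. Of phosphatases and feedback inhibitors, 11 of 36 were called higher and 7 lower, with a median log2 difference of -0.07. Ptprc, which encodes the leukocyte phosphatase CD45, had 1157 and 946 CPM in ductal, against 128 and 87.9 CPM in stromal macrophages (log2 difference 3.28 ± 0.40, adjusted p = 0.00015). Dusp2, a phosphatase of MAP kinases, had 443 and 572 CPM in ductal and 42.4 and 28.7 CPM in stromal libraries (log2 difference 3.84 ± 0.37), whereas Dusp7, of the same family, had 12.1 and 12.9 CPM in ductal and 106 and 95.9 CPM in stromal libraries (log2 difference -3.01 ± 0.33). Dusp1 and Socs3, feedback genes of MAP kinase and cytokine signals, were not called, with 4467 and 4103 CPM in ductal and 7141 and 4582 CPM in stromal libraries for Dusp1 and 543 and 490.3 CPM in ductal and 504 and 369 CPM in stromal libraries for Socs3.

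The median log2 difference of RGS proteins and G protein subunits was -0.07. Of these, 7 of 30 (23.3%) were called higher and 5 (16.7%) lower, beside 16.3% and 14.3% of all genes. Set otherwise, they were 3 lower without ductal replicate 1. Rgs1, which ends signals of chemokine receptors, had 3690.4 and 4017 CPM in ductal, against 488 and 335 CPM in stromal macrophages (log2 difference 3.23 ± 0.38, adjusted p = 0.00012). Gna12 and Gna13, alpha subunits of G proteins, had 698 and 550.0 CPM in ductal and 130.2 and 121 CPM in stromal libraries (log2 difference 2.31 ± 0.27) for Gna12 and 1029 and 768 CPM in ductal and 224 and 151.1 CPM in stromal libraries (log2 difference 2.26 ± 0.31) for Gna13. Gng12, a gamma subunit, was lower with 17.1 and 29.3 CPM in ductal and 176 and 177 CPM in stromal libraries (log2 difference -2.92 ± 0.29). Of actin and its binding proteins, 16 of 42 were called higher and 9 lower, with a median log2 difference of 0.50. Other settings gave 9 higher without ductal replicate 1 and 14 lower with the gene-length trend removed. Coro1a, an actin-binding protein of leukocytes, had 1202 and 1109.7 CPM in ductal, against 351 and 293 CPM in stromal macrophages (log2 difference 1.84 ± 0.28, adjusted p = 0.00074), and Marcksl1, which crosslinks actin at the membrane, had 33.9 and 57.3 CPM in ductal, against 919.6 and 759 CPM in stromal macrophages (log2 difference -4.20 ± 0.39, adjusted p = 2.6e-05).

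Glycolysis held calls in both directions. Of its genes, 8 of 26 were called higher and 4 lower, with a median log2 difference of 0.62. The counts became 4 higher and 2 lower without ductal replicate 1 and 5 higher without stromal replicate 1. Pfkfb3, which makes the activator of phosphofructokinase, had 384 and 318 CPM in ductal, against 118 and 106 CPM in stromal macrophages (log2 difference 1.65 ± 0.28, adjusted p = 0.0012), and Hk2, an inducible hexokinase, had 61.3 and 45.2 CPM in ductal and 17.9 and 21.7 CPM in stromal libraries (log2 difference 1.42 ± 0.26). Pfkp, a phosphofructokinase, was lower with 23.9 and 28.4 CPM in ductal and 64.7 and 74.9 CPM in stromal libraries (log2 difference -1.42 ± 0.28), as was the isomerase Tpi1 with 105 and 107 CPM in ductal and 209.2 and 208 CPM in stromal libraries (log2 difference -0.98 ± 0.21). Of respiratory chain genes of the nucleus, 4 of 37 were called higher and 1 lower, with a median log2 difference of 0.02. Recounted, these were 9 higher and 0 lower with the gene-length trend removed, 0 higher without ductal replicate 1, 2 higher without stromal replicate 1, 2 higher and 0 lower without ductal replicate 2 and 2 lower with upper-quartile factors. All 13 respiratory chain genes of the mitochondrial genome were lower, with a median of -4.42. The median log2 difference of genes of the citric acid cycle and fatty acid oxidation was 0.22. Of these, 6 of 31 (19.4%) were called higher and 3 (9.7%) lower, beside 16.3% and 14.3% of all genes. These counts moved to 3 higher without ductal replicate 1. Ogdh and Dlst, subunits of the oxoglutarate dehydrogenase complex, had 284 and 214 CPM in ductal and 100.1 and 112 CPM in stromal libraries (log2 difference 1.23 ± 0.24) for Ogdh and 181 and 165 CPM in ductal and 84.6 and 61.5 CPM in stromal libraries (log2 difference 1.24 ± 0.23) for Dlst. Fh1, fumarase, had 27.3 and 33.7 CPM in ductal and 193 and 164 CPM in stromal libraries (log2 difference -2.55 ± 0.26), and the cytosolic isocitrate dehydrogenase Idh1 had 117 and 65.1 CPM in ductal and 326 and 251 CPM in stromal libraries (log2 difference -1.66 ± 0.32).

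Of genes of cholesterol synthesis, uptake and efflux, 16 of 39 were called higher and 2 lower, with a median log2 difference of 0.65. Under other settings, counts were 9 higher and 1 lower without ductal replicate 1, 1 lower in a fit of the 4 macrophage libraries and 1 lower with the gene-length trend removed. Abca1 (Entrez gene ID 11303, chr4:53030789-53159988), which exports cholesterol, had 756 and 675 CPM in ductal, against 154 and 88.4 CPM in stromal macrophages (log2 difference 2.56 ± 0.42, adjusted p = 0.0011), and Soat1, which esterifies it for storage, had 475 and 319 CPM in ductal and 72.3 and 60.8 CPM in stromal libraries (log2 difference 2.58 ± 0.27). Pltp, a phospholipid transfer protein of lipoproteins, ran the other way with 116 and 81.3 CPM in ductal, against 1608 and 976 CPM in stromal macrophages (log2 difference -3.71 ± 0.51, adjusted p = 0.00036). Plin2, the coat protein of lipid droplets, was not called, with 1479.9 and 1201 CPM in ductal and 1211 and 975 CPM in stromal libraries. Of eicosanoid enzymes, 10 of 24 were called higher and 6 lower, with a median log2 difference of 0.05. Cyclooxygenase genes were among those higher and genes of the 5-lipoxygenase branch among those lower. Ptgs1, the constitutive cyclooxygenase, had 214 and 259.9 CPM in ductal, against 57.9 and 38.3 CPM in stromal macrophages (log2 difference 2.30 ± 0.49, adjusted p = 0.0054), and its inducible form Ptgs2, chosen after its values were seen, had 184 and 178 CPM in ductal and 14.8 and 10.6 CPM in stromal libraries (log2 difference 3.84 ± 0.45). Alox5ap, which presents arachidonic acid to 5-lipoxygenase, had 19.1 and 23.6 CPM in ductal, against 267 and 220.1 CPM in stromal macrophages (log2 difference -3.51 ± 0.34, adjusted p = 3.1e-05). Alox5, 5-lipoxygenase itself, had 2 counts over both ductal libraries and 3421 over both stromal libraries, and was called lower. Pla2g2d, a secreted phospholipase A2, had 2.05 and 1.89 CPM in ductal, against 342 and 213 CPM in stromal macrophages (log2 difference -7.13 ± 0.90, adjusted p = 0.00019), whereas Pla2g7, which breaks down platelet-activating factor, was higher with 821 and 595 CPM in ductal and 235 and 124.8 CPM in stromal libraries (log2 difference 1.98 ± 0.39). No ductal library overlapped a stromal library in any of these 6 genes, as in nearly all called genes. Mast cells also express the 5-lipoxygenase branch, and summed mast cell markers were lower in ductal libraries, as given above. Their member Cma1 was called lower with 0 and 1.13 CPM in ductal, against 61.7 and 20.7 CPM in stromal macrophages, with an adjusted p of 0.15 without ductal replicate 1, 0.072 without ductal replicate 2 and 0.073 without stromal replicate 1. Cpa3 had 0 and 0.946 CPM in ductal, against 39.1 and 12.2 CPM in stromal macrophages, Tpsb2 had 0.683 and 1.51 CPM in ductal, against 37.7 and 19.4 CPM in stromal macrophages and Mcpt4 had 0 and 0.567 CPM in ductal, against 24.1 and 5.83 CPM in stromal macrophages. Kit, the largest part of the mast cell sum in ductal libraries, overlapped between the populations. The part of mast cells in these results was not tested.

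**Figure D5:**
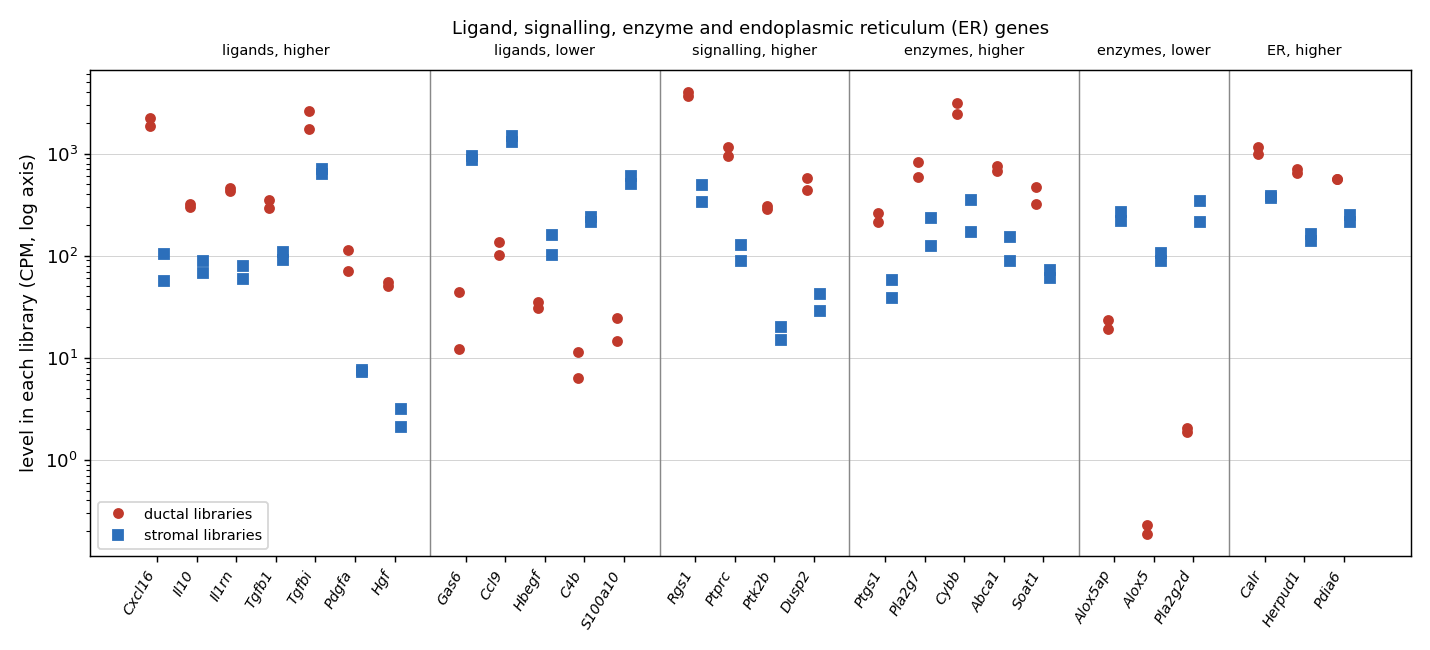
CPM (log scale) of ligand and enzyme genes in each library, with ductal libraries in the left column of points and stromal libraries in the right column for every gene. Il10, Hgf, Ptgs1 and Abca1 lie higher in both ductal libraries, and Ccl9, C4b, Alox5ap and S100a10 lower.

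Of iron and heme genes, 2 of 21 were called higher and 9 lower, with a median log2 difference of -0.18. By another setting, these came to 4 higher with the gene-length trend removed, 5 higher by DESeq2 and 4 lower without ductal replicate 1. Slc11a1, which pumps iron out of the phagosome, had 437 and 619 CPM in ductal, against 165 and 98.5 CPM in stromal macrophages (log2 difference 2.004 ± 0.31, adjusted p = 0.00069). Hmox1, heme oxygenase 1, had 600.0 and 273.7 CPM in ductal, against 2365 and 1335 CPM in stromal macrophages (log2 difference -2.08 ± 0.43, adjusted p = 0.0044), and the difference was -2.76 without ductal replicate 1. The ferritin light chain Ftl1 was not called, with 2531 and 2023 CPM in ductal and 3199 and 1971 CPM in stromal libraries. Of amino acid, nucleotide and redox enzymes, 15 of 37 were called higher and 2 lower, with a median log2 difference of 0.35. The counts were 4 lower with no filter on low counts. Cyba, a subunit of the phagocyte NADPH oxidase, had 751 and 657 CPM in ductal, against 268 and 233 CPM in stromal macrophages (log2 difference 1.49 ± 0.29, adjusted p = 0.003). Its partner Cybb had 3126 and 2423 CPM in ductal and 352 and 170.4 CPM in stromal libraries (log2 difference 3.41 ± 0.60), and a log2 difference of 4.06 without stromal replicate 1. Taldo1, of the pentose phosphate pathway, had 623 and 515 CPM in ductal and 139 and 170.2 CPM in stromal libraries (log2 difference 1.88 ± 0.26), and Txnrd1, thioredoxin reductase, had 595 and 451 CPM in ductal and 170.3 and 157 CPM in stromal libraries (log2 difference 1.68 ± 0.28). Kmo, an enzyme of tryptophan breakdown, had 1 count over both ductal libraries and 2834 over both stromal libraries, and was called lower.

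Genes of protein handling were counted by compartment. Of the vacuolar proton pump, 7 of 17 were called higher and 1 lower, with a median log2 difference of 0.50, and of cathepsins, legumain and cystatins, 8 of 18 were called higher and 1 lower, with a median log2 difference of 1.02. For the cathepsin group, the counts were 2 lower with no filter on low counts, 0 lower with the gene-length trend removed, 0 lower without ductal replicate 1, 0 lower without stromal replicate 1 and 0 lower without ductal replicate 2. For the pump, they were 0 lower without ductal replicate 1, 0 lower without stromal replicate 1 and 0 lower without ductal replicate 2. At 100 CPM or more, 6 of 14 pump genes were higher and 0 lower, and 6 of 13 of the cathepsin group higher and 1 lower. Of all genes at that level, 34.7% were higher and 17.3% lower. Lgmn, the lysosomal protease legumain, had 2377 and 2467 CPM in ductal, against 725 and 584 CPM in stromal macrophages (log2 difference 1.89 ± 0.25, adjusted p = 0.00028), and Atp6ap2, an accessory subunit of the pump, had 1195 and 1138 CPM in ductal and 278 and 182.9 CPM in stromal libraries (log2 difference 2.34 ± 0.33). Of cytosolic ribosomal proteins, 2 of 78 were called higher and 5 lower, with a median log2 difference of -0.27, and of proteasome subunits, 2 of 36 were called higher and 0 lower, with a median log2 difference of 0.15, beside the 16.3% and 14.3% of all genes. Ribosomal proteins counted 0 to 6 higher in 7 of the 19 other settings and 0 to 9 lower in 8 of the 19 other settings. Proteasome subunits counted 0 to 9 higher in 8 of the 19 other settings and 1 lower in 7 of the 19 other settings. The count of 9 higher among 36 arose with the gene-length trend removed, beside 2364 of 15681 over all genes, so there the proteasome share exceeded that of all genes.

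The endoplasmic reticulum folds secreted and membrane proteins, and its unfolded protein response is driven by ATF6, XBP1 and ATF4. Of its chaperones and response genes, 17 of 28 were called higher and 2 lower, with a median log2 difference of 1.20. Set otherwise, they were 1 lower with the gene-length trend removed, 1 lower without ductal replicate 1 and 1 lower without stromal replicate 1. Hspa5 (Entrez gene ID 14828, chr2:34772090-34776529), the chaperone BiP, had 3633 and 3052 CPM in ductal, against 1671 and 1252 CPM in stromal macrophages (log2 difference 1.19 ± 0.28, adjusted p = 0.0089), with an adjusted p of 0.07 without ductal replicate 1 and 0.063 without stromal replicate 2. Calr, the chaperone calreticulin, had 1162 and 1000.03 CPM in ductal, against 368 and 387 CPM in stromal macrophages (log2 difference 1.52 ± 0.25, adjusted p = 0.00099), and Herpud1, of the degradation machinery, had 643 and 705 CPM in ductal, against 165 and 139 CPM in stromal macrophages (log2 difference 2.15 ± 0.25, adjusted p = 0.0001). Hyou1, Edem1 and Atf6, chosen after their values were seen, had 72.9 and 72.3 CPM in ductal and 11.8 and 10.9 CPM in stromal libraries (log2 difference 2.68 ± 0.24) for the chaperone Hyou1, 450.3 and 343 CPM in ductal and 63.7 and 52.5 CPM in stromal libraries (log2 difference 2.77 ± 0.26) for the degradation factor Edem1 and 238 and 189 CPM in ductal and 45.04 and 27.5 CPM in stromal libraries (log2 difference 2.56 ± 0.32) for the sensor Atf6. Atf4, the factor of the PERK branch, was lower with 115 and 121 CPM in ductal and 307 and 241 CPM in stromal libraries (log2 difference -1.21 ± 0.22). Canx, which encodes calnexin, was not called, with 1159 and 1122 CPM in ductal and 850.1 and 569 CPM in stromal libraries.

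The endoplasmic reticulum stress element, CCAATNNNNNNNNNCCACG, is the sequence through which ATF6 is known to act together with the factor NF-Y, and it was searched on both strands in the same RefSeq promoters. It was found in 8 of the 24 list members whose promoter was matched, namely Calr, Canx, Creld2, Dnajc3, Hsp90b1, Hspa5, Pdia6 and Syvn1, beside 0.178% of the 11766 tested genes with a matched promoter and 0.119% of all 32851 promoters. Of these 8 genes, 6 were called higher and 0 lower in ductal macrophages, and Canx and Hsp90b1 were not called. Beside them, 17 of 28 were higher over the whole list, with or without the element, and 16.3% over all genes tested. Whether the element bears on the difference was not tested. Creld2, Syvn1, Pdia6 and Dnajc3, chosen here by the match, had 146 and 150.2 CPM in ductal and 34.001 and 39.5 CPM in stromal libraries (log2 difference 2.01 ± 0.26) for Creld2, 65.1 and 50.3 CPM in ductal and 11.6 and 20.4 CPM in stromal libraries (log2 difference 1.85 ± 0.30) for Syvn1, 564 and 569 CPM in ductal and 215 and 249 CPM in stromal libraries (log2 difference 1.29 ± 0.24) for Pdia6 and 341 and 328 CPM in ductal and 162 and 129 CPM in stromal libraries (log2 difference 1.20 ± 0.25) for Dnajc3. The 6 windows of the called genes are shown on the strand of the gene, with the element in capitals, and in Calr and Creld2 the match is on the opposite strand and reads in reverse complement. The windows are chr2:34772005-34772063, plus strand (Hspa5), chr8:84847055-84847113, minus strand (Calr), chr15:88819500-88819558, plus strand (Creld2), chr19:6046512-6046570, plus strand (Syvn1), chr12:17266471-17266529, plus strand (Pdia6) and chr14:118937807-118937865, plus strand (Dnajc3) of GRCm38.p6. A match shows these letters alone, and no binding was measured.
Hspa5: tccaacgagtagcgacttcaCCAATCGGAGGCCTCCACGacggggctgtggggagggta
Calr: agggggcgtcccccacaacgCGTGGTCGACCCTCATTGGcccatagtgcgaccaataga
Creld2: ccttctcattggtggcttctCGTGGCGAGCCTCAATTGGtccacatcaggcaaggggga
Syvn1: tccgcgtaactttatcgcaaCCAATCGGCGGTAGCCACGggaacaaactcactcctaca
Pdia6: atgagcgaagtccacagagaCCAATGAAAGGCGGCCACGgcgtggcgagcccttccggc
Dnajc3: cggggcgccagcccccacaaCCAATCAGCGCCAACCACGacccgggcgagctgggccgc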

How the data were processed

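The deposited values were raw read counts per gene, made by the authors with featureCounts on mm10, per the submitters' processing notes. For the aligner, annotation and strandedness, details were not given in the sources used here. Of 27179 Entrez gene IDs, 25275 took RefSeq names. Genes were filtered with filterByExpr (minimum count 10, minimum total 15), normalized by TMM and fitted in R 4.3.3 with edgeR 4.0.16 (quasi-likelihood test, all 10 libraries, 1 mean per population, 5 residual degrees of freedom, common biological coefficient of variation 0.333). Totals ranged from 5636092 to 23093742. Benjamini-Hochberg adjusted p under 0.05 was the threshold. CPM were counts per TMM-adjusted total of tested genes, and FPKM were CPM per kilobase of deposited gene length. Bounds against 0 used 3 counts and cover counting error alone. Recovery of known fold changes was tested on simulated data. Counts between replicates differed beyond sampling noise (chi-square per degree of freedom 13.1 in ductal and 67.3 in stromal macrophages).

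The populations, gene lists and markers were chosen with earlier results of these data known. Named genes were the 15 called genes per direction of highest level, with a log2 difference of at least 1 and no overlap between ductal and stromal libraries. To these were added up to 4 called per direction and 2 not called in each list, members at 0 in either population, and markers. Exceptions are marked in the text. DESeq2 1.42.0, other normalizations, filters and libraries, a replicate block and, chosen after seeing the data, a gene-length offset were tried as alternatives. Promoter windows of 300 bases came from RefSeq (GRCm38.p6). A few list members and 1 list are not reported here.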

Additional observations from a re-analysis of the deposited data

How the results depend on the processing

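No gene called in the main test was called in the opposite direction under any of the 19 other settings. Without ductal replicate 1, 1555 genes were higher and 981 lower, and without ductal replicate 2, 1902 were higher and 1349 lower. Leaving out each of the 10 libraries in turn gave 1555 to 2480 genes higher and 981 to 2263 lower, and at 100 CPM or more 466 to 634 higher and 218 to 325 lower. A population left with a single library was assumed to vary like the others. With a limit of 50 CPM in place of 100, 1166 genes were higher and 613 lower, and with 200 CPM, 324 and 148, because fewer or more genes were counted. Upper-quartile factors gave 2320 higher and 2650 lower, or 46.7% of calls higher in place of 53.2%, and shifted the median of all genes by -0.116. The gene-length offset gave 2364 higher and 2579 lower, or 47.8% higher. The cause of these shifts was not tested. RLE size factors, mitochondrial genes left out, other filters, a fit of the 4 macrophage libraries and DESeq2 kept all 4 counts within 1.5 times. The replicate numbers are shared by name alone and give only 2 pairs, and the correlation of deviations between same-numbered ductal and stromal libraries was 0.126. With a replicate block, 2365 genes were higher and 1995 lower, and 606 and 299 at 100 CPM or more. Of 391 named genes that were called, 145 lost the call in at least 1 of the 19 settings. Depth was lower in ductal libraries, where 3 counts stand for 0.683 and 0.567 CPM, so a gene at 0 there may have been below detection.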
